A study of Homo sapiens with 8 samples.

Results

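The transcripts of 8 cell-surface receptors for lipoproteins and modified lipoproteins were followed in HuH7 cells that had been deprived of oxygen and glucose and then reoxygenated (OGD/R). The receptors were VLDLR, LRP1, LRP5, LRP6, LRP8, OLR1, SCARB1 and CD36. They were named one by one and were chosen with results of the same comparison known, so that their own values are given as a description and no p-value is printed for them. Where a receptor is said to be called or not, this states on which side of the threshold used for all genes it fell, and it is not independent evidence. All 8 were found among the 15767 genes of the count table, and 7 had enough counts to be fitted.

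HuH7 is a wild-type, epithelial-like and tumorigenic human hepatoma line, and it was the only cell line sequenced here. All cells spent 6 h without glucose at 1% oxygen and a further 6 h at normal oxygen. During the reoxygenation period, 4 samples received the vehicle DMSO (I/R+DMSO) and 4 received 20 µM ginsenoside Rk2 in DMSO (I/R+Rk2), a saponin of ginseng. No library from cells kept without OGD/R is used here, so the comparison sets Rk2 against its vehicle and not OGD/R against normal culture. The labels do not say whether the samples were separate cultures, and p-values then measure only the spread between these samples.

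Receptors of the LDL receptor family bind lipoproteins and other ligands at the cell surface and carry them into endosomes through clathrin-coated pits. Some members also signal, LRP5 and LRP6 as co-receptors for Wnt ligands and LRP8 and VLDLR as receptors for reelin. Scavenger receptors belong to other protein families, take up modified lipoproteins or exchange lipid with them, and in the liver are found on hepatocytes and on sinusoidal endothelial cells and macrophages.

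The I/R+DMSO libraries held 18428485 to 21447045 counts (median 20300158), and those of I/R+Rk2 held 16374082 to 30310479 (median 19105560). The 12 hepatocyte markers, including ALB and AFP, were all detected and summed to 13557 to 15040 CPM (counts scaled to a common library size) in I/R+DMSO and 13198 to 13497 CPM in I/R+Rk2, ranges that did not overlap. Within this list ALB had means of 2285 and 2304 CPM and AFP of 5931 and 5933 CPM, while KRT8 had 1878 and 1355 CPM and KRT18 had 910 and 636 CPM in I/R+DMSO and I/R+Rk2. In the same order FGB had means of 350 and 290 CPM and APOA1 of 225 and 193 CPM. The means of HNF4A, 70.1 and 92.1 CPM, differed in the other direction. These are means alone, and no call is given for these single markers here. Of 10 macrophage markers, PTPRC, CD163, CSF1R, TYROBP, C1QA and C1QB were listed at 0 FPKM in all 8 libraries. The sum of the list was 666 to 730 CPM against 633 to 724 CPM, mostly from LYZ. CD68 was present at means of 52.4 and 49.5 CPM in I/R+DMSO and I/R+Rk2. Of 8 endothelial markers, VWF, CDH5, KDR, TEK and EMCN were listed at 0 FPKM, and the list summed to 9.22 to 10.8 CPM against 10.3 to 11.7 CPM. Of 8 stellate cell markers, DCN was listed at 0 FPKM, and the list summed to 27.2 to 33.6 CPM against 31.0 to 31.7 CPM. Others were present, with means in I/R+DMSO and I/R+Rk2 of 18.1 and 17.7 CPM (COL1A2), 7.45 and 8.66 CPM (RGS5) and 2.39 and 2.16 CPM (PDGFRB). As these were bulk libraries, a change in the share of cells that express a gene and a change in RNA per cell could not be told apart. The part of the marker sums in the results was not tested.

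The region before the transcription start of 5 of the 8 receptors was read from RefSeq (GRCh38.p14), as the 250 bases upstream of each start. VLDLR and LRP8 are shown because they are close relatives that both had a window, and only VLDLR was called. The first of 6 CD36 windows is shown because CD36 was the receptor near the detection limit. Capitals mark matches on either strand to the GC box (GGGCGG) and to the TATA box (TATAAA), the motifs that these 3 windows held.
VLDLR, chr9:2621537-2621786, plus strand: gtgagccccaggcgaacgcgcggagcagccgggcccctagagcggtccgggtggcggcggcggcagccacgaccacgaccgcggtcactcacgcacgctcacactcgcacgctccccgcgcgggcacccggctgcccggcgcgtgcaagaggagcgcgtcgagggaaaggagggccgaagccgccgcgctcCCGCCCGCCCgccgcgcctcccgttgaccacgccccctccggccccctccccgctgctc
LRP8, chr1:53328071-53328320, minus strand: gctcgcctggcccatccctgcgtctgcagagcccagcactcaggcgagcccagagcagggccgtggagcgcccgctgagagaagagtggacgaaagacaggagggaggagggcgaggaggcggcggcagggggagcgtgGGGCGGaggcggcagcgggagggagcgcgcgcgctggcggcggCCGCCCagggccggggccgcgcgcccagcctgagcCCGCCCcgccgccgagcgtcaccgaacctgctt
CD36, chr7:80601957-80602206, plus strand: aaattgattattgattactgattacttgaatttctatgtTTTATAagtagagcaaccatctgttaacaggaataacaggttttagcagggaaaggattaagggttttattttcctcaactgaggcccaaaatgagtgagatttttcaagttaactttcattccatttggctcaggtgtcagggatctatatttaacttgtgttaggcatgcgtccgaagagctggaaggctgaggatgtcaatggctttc

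The windows of VLDLR and LRP8 were both rich in G and C, at 78.8% and 77.2%, with 41 and 31 CpG dinucleotides. That of VLDLR held 2 overlapping GC boxes whose first bases lay 59 and 55 bases before the start. LRP8 held 3, at 111, 68 and 33 bases. LRP5 had 3 GC boxes in a window of 87.2% GC and LRP1 had 1 in a window of 67.6% GC, whereas the 6 CD36 windows had 31.2% to 43.2% GC and no GC box. Of all 35114 RefSeq windows of this length, 42.6% held a GC box and 10.7% a TATA box. Also searched on both strands were the C/EBP-ATF response element TGATGNAA (in 3.14% of all windows), the hypoxia response core ACGTG (18.5%), the CCAAT box (32.0%) and the AP-1 site TGACTCA (4.20%). None of these 4 was found in the windows of VLDLR, LRP8, LRP1 or LRP5, and in CD36 only the fifth window held a CCAAT box and an AP-1 site, beside another TATA box. A match or its absence describes these letters in this window alone.

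Gene positions are given in GRCh38 from the GENCODE v29 annotation, and counts cover whole genes. Normalized CPM are counts scaled by library size and by TMM factors of 0.979 to 1.02, and a gene was called when its adjusted p-value from edgeR was below 0.05. Of the 12928 genes tested, 2351 were called, or 18.2% (1416, or 11.0%, higher and 935, or 7.23%, lower in I/R+Rk2). Among the receptors, 3 of 7 were called, 2 higher (VLDLR and LRP6) and 1 lower (OLR1), and 4 (LRP1, LRP5, LRP8 and SCARB1) were not. With a fold change above 1.5 as well, VLDLR and OLR1 remained called, against 393 genes or 3.04% of all tested. The groups did not overlap in normalized CPM for 4 receptors (VLDLR, LRP5, LRP6 and OLR1) and for 3651 genes or 28.2% of all tested. Since the receptors were selected on this comparison, nothing is read from their share against the background. The log2 fold change was above 0 for 6 of the 7, with a median of 0.19, and the median over all genes tested was -0.002.

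**Figure D1:**
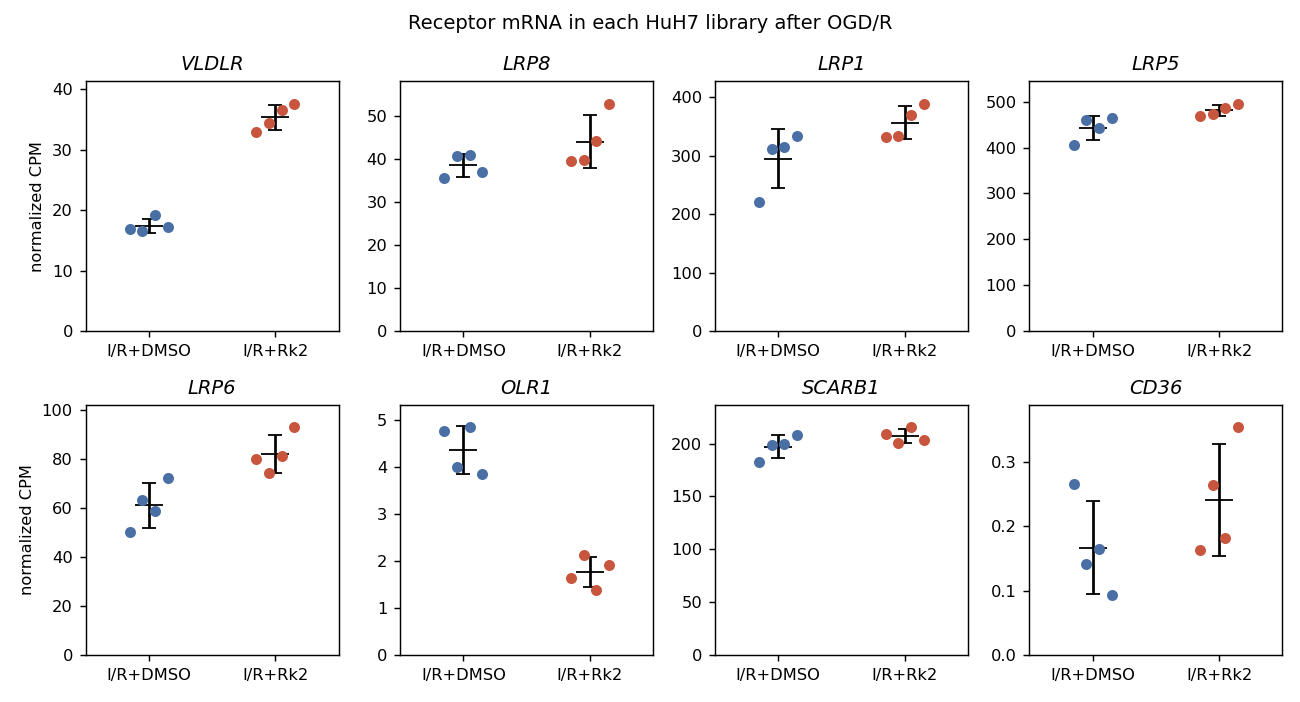
Normalized CPM (vertical axes, each from 0) of the 8 receptors in every library, with 4 points for I/R+DMSO (blue) and 4 for I/R+Rk2 (red), and the mean with its SD in black. The groups are apart in VLDLR, LRP5, LRP6 and OLR1 and overlap in LRP8, LRP1, SCARB1 and CD36.

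VLDLR encodes the very low density lipoprotein receptor, which binds triglyceride-rich particles and reelin. The gene lies at chr9:2621834-2660053 on the plus strand. Its normalized CPM were 16.9, 16.6, 19.2 and 17.2 in I/R+DMSO replicates 1 to 4 and 33.0, 34.5, 36.5 and 37.6 in I/R+Rk2 replicates 1 to 4. Every Rk2 library was far above every DMSO library, and the values within each group lay close together. The mean went from 17.5 ± 1.17 to 35.4 ± 2.06 CPM (SD, n = 4 per group), and the log2 fold change was 1.02 with an SE of 0.07 (95% interval 0.86 to 1.18), a 2.03-fold rise. These values rest on 318 to 368 counts per DMSO library and 604 to 1008 per Rk2 library. Counting error alone would give a coefficient of variation of 5.37% and 3.65%, and the observed ones were 6.67% and 5.82%. VLDLR ranked 134 of 12928 genes from the highest log2 fold change. Its exons overlap those of VLDLR-AS1 on the opposite strand, and whether counting used strand is not given in the sources used here.

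LRP8 is the nearest relative of VLDLR and shares reelin as a ligand. It lies at chr1:53242364-53328070 on the minus strand. Its normalized CPM were 35.4, 40.6, 40.9 and 36.8 in I/R+DMSO and 39.4, 39.7, 44.1 and 52.8 in I/R+Rk2. The groups overlapped, and replicate 4 of I/R+Rk2 stood highest. The means were 38.4 ± 2.72 and 44.0 ± 6.22 CPM, and the log2 fold change of 0.19 (SE 0.10, 95% interval -0.04 to 0.43) was not called. Without I/R+Rk2 replicate 4 it was 0.09. The interval corresponds to a fold change between 0.972 and 1.35. It leaves room for a modest rise and for little fall, so LRP8 is not shown to be the same in both groups. Its exons overlap 3 antisense or neighbouring gene models on the opposite strand, AL355483.2, AL355483.4 and AL606760.1.

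Since both genes were read in each library, their count ratio does not depend on library size. The count of VLDLR divided by that of LRP8 was 0.476, 0.408, 0.468 and 0.468 in the DMSO libraries and 0.837, 0.868, 0.827 and 0.713 in the Rk2 libraries. All Rk2 ratios were above all DMSO ratios, with means of 0.455 ± 0.0317 and 0.811 ± 0.0679. The genes differ in exon length, so only the difference between groups can be read from this ratio and not which transcript was more abundant.

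**Figure D2:**
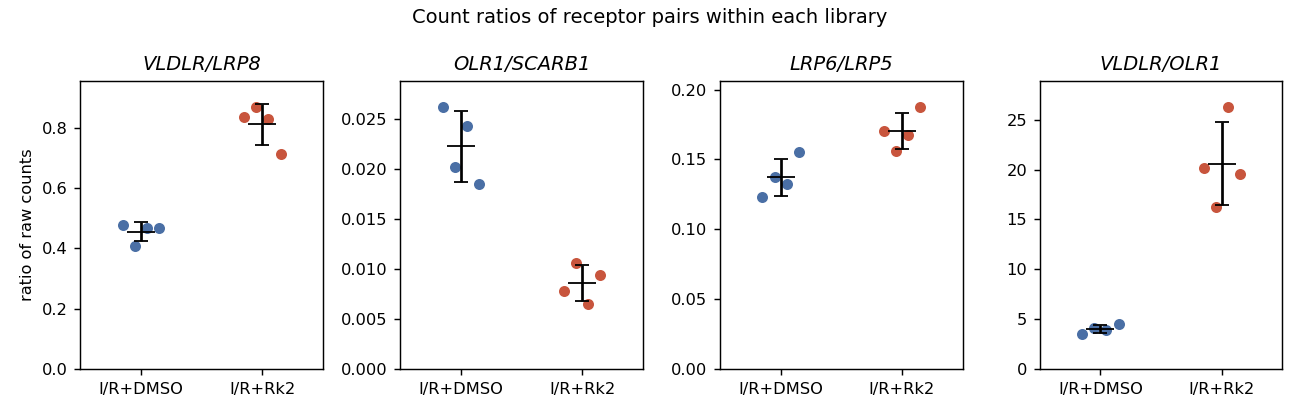
Ratios of raw counts of 4 receptor pairs (vertical axes, each from 0) in every library, with I/R+DMSO in blue, I/R+Rk2 in red and the mean with its SD in black. VLDLR/LRP8 averages 0.455 and 0.811, OLR1/SCARB1 averages 0.0223 and 0.00856, and in all 4 pairs the groups are apart.

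LRP1 is a very large receptor of hepatocytes that clears chylomicron remnants, protease-inhibitor complexes and many other ligands. It lies at chr12:57128493-57213351 on the plus strand. Its normalized CPM were 221, 311, 315 and 333 in I/R+DMSO and 333, 334, 371 and 389 in I/R+Rk2. The highest DMSO library just exceeded the lowest Rk2 library, and replicate 1 of I/R+DMSO lay well below the others. The means were 295 ± 50.4 and 357 ± 27.9 CPM, and the log2 fold change of 0.27 (SE 0.13, 95% interval -0.02 to 0.56) was not called. It was 0.16 without I/R+DMSO replicate 1. With 4166 to 7115 counts per DMSO library, counting error would give a coefficient of variation of 1.301% in I/R+DMSO, and the observed one was 17.1%. The libraries thus differed far more than counting error. The exons of LRP1 overlap those of LRP1-AS and STAT6 on the opposite strand.

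LRP5 and LRP6 encode the paired co-receptors through which Wnt ligands and frizzled proteins stabilize beta-catenin. LRP5 lies at chr11:68312609-68449275 on the plus strand and LRP6 at chr12:12116025-12267012 on the minus strand. LRP5 had normalized CPM of 406, 459, 442 and 465 in I/R+DMSO and 469, 474, 486 and 495 in I/R+Rk2. The groups did not overlap, but their nearest libraries were only a few CPM apart. The means were 443 ± 26.4 and 481 ± 11.8 CPM, and the log2 fold change was 0.12 (SE 0.05, 95% interval 0.01 to 0.23). The interval of this single gene lay just above 0, and the gene was not called after adjustment over all genes.

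LRP6 had normalized CPM of 49.99, 63.2, 58.7 and 72.1 in I/R+DMSO and 80.0, 74.1, 81.4 and 92.8 in I/R+Rk2. All Rk2 libraries were above all DMSO libraries, with a narrow gap between DMSO replicate 4 and Rk2 replicate 2. The mean rose from 61.0 ± 9.21 to 82.1 ± 7.85 CPM, with a log2 fold change of 0.43 (SE 0.11, 95% interval 0.16 to 0.69). This call was made in 10 of 22 settings. It was lost in 7 of the 8 fits that left out a library (log2 fold changes of 0.34 to 0.47), that is in all but the one without I/R+DMSO replicate 4 (0.52), in 3 limma fits on FPKM and in both fits with a gene length correction. The count ratio of LRP6 to LRP5 was 0.123, 0.138, 0.133 and 0.155 in I/R+DMSO and 0.171, 0.156, 0.167 and 0.187 in I/R+Rk2. The groups were again apart, by the small distance between 0.155 and 0.156.

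Transcript length moved with these values. Over the 12898 genes with a length implied by counts and FPKM, the log2 fold change rose with length (Spearman's rho 0.388 across genes, which are not independent replicates). LRP1 has an implied length of 14.9 kb, longer than 99.5% of genes, and LRP6 one of 9.10 kb, longer than 96.4%. When the trend with length was removed from each library, the log2 fold change of LRP1 was -0.063 and that of LRP5 was -0.041, and neither was called in either fit. That of LRP6 was 0.17 and no longer called, and that of LRP8 was 0.03. The corrected values of VLDLR (0.85) and OLR1 (-1.28) were still called. The part of length in the uncorrected values of the 4 LRP genes was not tested beyond this correction. A separate feature was replicate 1 of I/R+DMSO, which was the lowest DMSO library for LRP1, LRP5, LRP6, LRP8 and SCARB1, that is 5 of the 7 receptors, and received a sample weight of 0.353 from limma's voom.

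**Figure D3:**
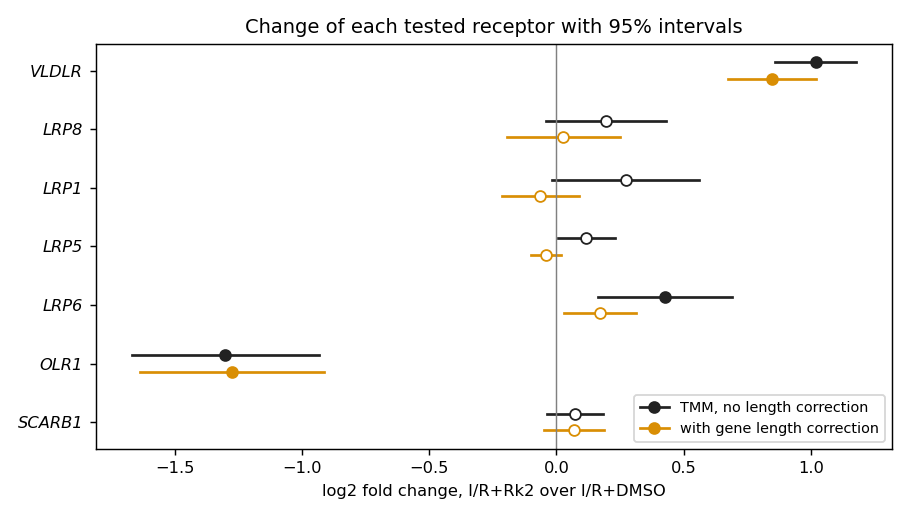
Log2 fold change of I/R+Rk2 over I/R+DMSO (horizontal axis) for the 7 receptors tested, with 95% intervals, from edgeR without (black) and with (orange) a gene length correction. Filled points passed the adjusted p-value of 0.05. VLDLR and OLR1 are filled in both fits, LRP6 only without the correction (0.43 against 0.17).

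OLR1 encodes LOX-1, a lectin-like receptor for oxidized low density lipoprotein best known from endothelial cells. It lies at chr12:10158301-10172138 on the minus strand. Its raw counts were 90, 85, 88 and 82 in I/R+DMSO and 50, 40, 23 and 38 in I/R+Rk2. In normalized CPM these were 4.78, 3.9996, 4.84 and 3.84 against 1.64, 2.12, 1.39 and 1.92. Every Rk2 library was below every DMSO library, also in raw counts and also in the Rk2 library of greatest depth. The mean fell from 4.37 ± 0.518 to 1.77 ± 0.319 CPM, which is 2.47-fold lower, and the log2 fold change was -1.30 (SE 0.16, 95% interval -1.67 to -0.93). It ranked 27 from the lowest of 12928 genes. At these counts sampling alone would give coefficients of variation of 10.8% and 16.3%, close to the 11.9% and 18.1% observed. The gene was outside the fit that required at least 50 counts in every library. Of the 8 endothelial markers, VWF, CDH5, KDR, TEK and EMCN were at 0 FPKM in these same libraries, whereas PECAM1 was present at 9.30 and 9.86 CPM (means of I/R+DMSO and I/R+Rk2), LYVE1 at 0.741 and 1.32 CPM and STAB2 at 0 and 0.0397 CPM. Their part in the OLR1 values was not tested.

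SCARB1 encodes SR-B1, the receptor that takes up cholesteryl ester from high density lipoprotein into hepatocytes. It lies at chr12:124776856-124882668 on the minus strand. Its normalized CPM were 182, 198, 199 and 208 in I/R+DMSO and 209, 201, 215 and 204 in I/R+Rk2. The groups overlapped, and the libraries of both lay close together. The means were 197 ± 10.6 and 207 ± 6.43 CPM, and the log2 fold change was 0.07 (SE 0.05, 95% interval -0.04 to 0.18). The interval corresponds to a fold change between 0.976 and 1.13, so a change outside these bounds was not supported for SCARB1 at this precision. The count of OLR1 divided by that of SCARB1 was 0.0262, 0.0202, 0.0243 and 0.0185 in the DMSO libraries and 0.00781, 0.0106, 0.00646 and 0.00943 in the Rk2 libraries. Those ranges were well apart. VLDLR and OLR1, the receptors that moved in opposite directions, had a count ratio of 3.53 to 4.49 under DMSO, and under Rk2 the ratio was 16.3 to 26.3.

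CD36, a scavenger receptor and fatty acid translocase, was close to undetected. The gene lies at chr7:80369575-80679277 on the plus strand. Its raw counts were 5, 3, 3 and 2 in I/R+DMSO and 5, 5, 3 and 7 in I/R+Rk2, below the minimum of 10 counts in 4 libraries, so it was not tested. The libraries of both groups overlapped. The 20 counts of I/R+Rk2 against the 13 of I/R+DMSO gave a depth-adjusted ratio of 1.43 with an exact 95% interval of 0.676 to 3.12, which covers counting error only. A difference between groups was not detectable at this depth.

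Levels of different receptors were compared as FPKM, which the authors normalized for length. In I/R+DMSO the order was LRP5 (87.9 ± 4.22), SCARB1 (87.0 ± 6.97), LRP1 (19.9 ± 3.57), LRP8 (8.06 ± 2.66), LRP6 (6.56 ± 1.15), VLDLR (3.37 ± 0.692), OLR1 (2.18 ± 0.278) and CD36 (0.0170 ± 0.00739 FPKM, SD, n = 4). The neighbours LRP5 and SCARB1 overlapped, as did LRP8 and LRP6, and the others were apart. LRP5 and SCARB1 held 40.9% and 40.5% of the summed FPKM of the 8 receptors. This near-equality depended on the length used. The FPKM imply a length of 2.202 kb for SCARB1, whose merged exons in GENCODE v29 span 7.74 kb, and 5.16 kb for LRP5, whose merged exons span 6.16 kb. In CPM per kb of merged exons LRP5 had 71.9 and SCARB1 25.4 in I/R+DMSO, a ratio of 2.83, and 78.0 and 26.8 in I/R+Rk2. In I/R+Rk2 SCARB1 (94.2 ± 5.62) and LRP5 (92.9 ± 2.55 FPKM) again overlapped at the top. LRP6 (9.04 ± 1.21), LRP8 (8.82 ± 1.84) and VLDLR (6.47 ± 1.41 FPKM) followed LRP1 (23.6 ± 2.07 FPKM). LRP8 now overlapped both LRP6 and VLDLR. VLDLR was still below LRP8 in each single Rk2 library, so only the ends of their ranges overlapped. OLR1 (0.926 ± 0.354) and CD36 (0.0319 ± 0.0171 FPKM) stayed lowest.

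The VLDLR FPKM in single libraries were 3.05, 2.85, 4.39 and 3.21 in I/R+DMSO and 4.68, 6.08, 7.90 and 7.20 in I/R+Rk2. These groups did not overlap either, but the spread was wider than in CPM. The length by which the FPKM of a gene was divided, as implied by its count, differed between libraries by up to 1.65 times for VLDLR, 1.83 times for LRP8 and 1.81 times for OLR1, and by up to 1.09 times for LRP5. Counts therefore served for the comparison between groups and FPKM only for the order of the levels.

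**Figure D4:**
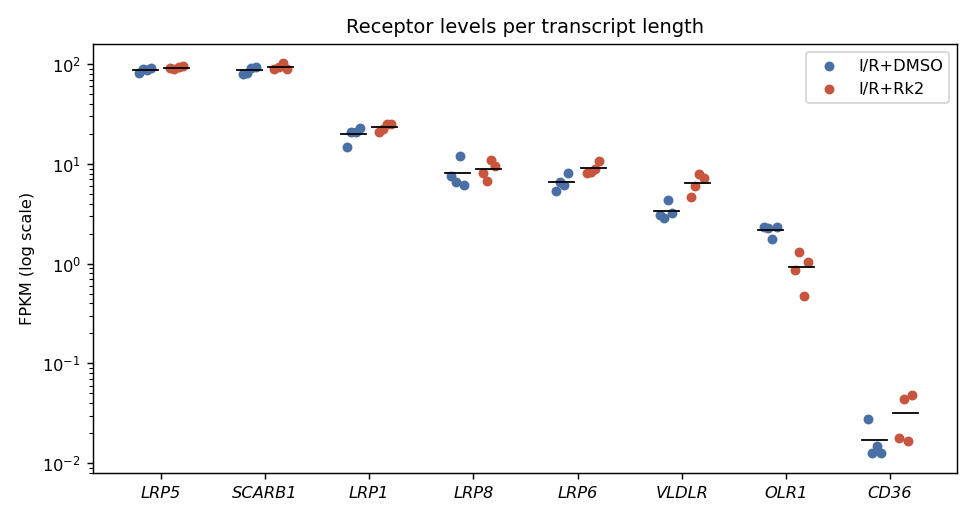
FPKM (vertical axis, log scale) of the 8 receptors in every library, ordered by their mean in I/R+DMSO, with I/R+DMSO in blue, I/R+Rk2 in red and the group mean as a black line. On this scale LRP5 and SCARB1 overlap at the top (87.9 and 87.0 FPKM in I/R+DMSO, but 71.9 and 25.4 CPM per kb of merged exons), and CD36 lies near 0.0170 FPKM.

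Genes that work with these receptors were read from 9 lists of 156 genes in all, of which 127 were tested. Of these, 31 were called, 23 higher and 8 lower in I/R+Rk2, or 24.4% beside the 18.2% of all genes, and their median log2 fold change was 0.04 beside -0.002. The direction of this balance depended on scaling. With the gene length correction 37 were called, 13 higher and 24 lower, where 19.3% of all genes were called, 6.62% higher and 12.7% lower. With upper-quartile normalization 33 were called, 21 higher and 12 lower, where 19.7% of all genes were called, 9.64% higher and 10.1% lower. Of the 31 genes, 21 were also called after the length correction, 13 of the 23 higher and all 8 lower ones. Beyond the genes named by rule, the remaining called genes are named in the paragraphs that follow because they were called, that is after their values were seen. The lists themselves were chosen with earlier results of these data known. Nothing is therefore read from their shares beside those of all genes, here or list by list. The adjusted p-values of their genes are likewise a description and not independent evidence.

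Of 11 other relatives of the receptor family, 3 were called higher and 1 lower, beside 18.2% called among all genes. Their median log2 fold change was 0.16. LRP1B, a close homologue of LRP1, rose from 2.46 ± 0.501 to 4.56 ± 0.711 CPM (log2 fold change 0.89, SE 0.18, adjusted p = 0.0122), on only 40 to 144 counts per library. It has an implied length of 19.9 kb, and with the length correction its adjusted p was 0.0502. The sorting receptor SORT1 (0.28) and LRP11 (0.24) also rose on the log2 scale and were not called after that correction (adjusted p = 0.457 and 0.154). LSR, the lipolysis-stimulated lipoprotein receptor, fell from 72.3 ± 3.25 to 61.4 ± 1.94 CPM (log2 fold change -0.24, SE 0.05, adjusted p = 0.0137) and was called in all 22 settings.

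Of 10 other scavenger receptors tested, 1 was called higher and 2 lower, beside 18.2% called among all genes. Their median log2 fold change was -0.03. CXCL16, a transmembrane chemokine that also binds oxidized lipoprotein, rose from 33.4 ± 2.33 to 48.1 ± 4.03 CPM (log2 fold change 0.53, SE 0.08, adjusted p = 0.00407). CD14, a lipopolysaccharide co-receptor, fell from 0.802 ± 0.255 to 0.340 ± 0.124 CPM (log2 fold change -1.25, SE 0.35, adjusted p = 0.0430), on 5 to 24 counts per library. That call was made in 9 of the 18 settings that tested it. SCARA3 also fell, with a log2 fold change of -0.39 (SE 0.09, adjusted p = 0.0172).

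Receptor chaperones, adaptors and turnover factors numbered 16, of which 3 were called higher and none lower, beside 18.2% called among all genes. The 3 called were the clathrin heavy chain CLTC (log2 fold change 0.34, SE 0.09, adjusted p = 0.0308), the endocytic adaptor DAB2 (0.31) and the sheddase ADAM10 (0.21). None of the 3 was called with the length correction, where the adjusted p was 0.0653, 0.133 and 0.720 and the log2 fold change of ADAM10 turned to -0.035. LRPAP1, the chaperone that keeps LRP1 and its relatives from binding ligand too early, had 215 ± 13.3 and 203 ± 7.03 CPM and was not called (log2 fold change -0.08, adjusted p = 0.286), although it was with the length correction (-0.34, adjusted p = 0.0496). LRPAP1 was called in only 2 of 22 settings, and its log2 fold change turned positive in the limma fits on FPKM. MYLIP, also named IDOL, is the ubiquitin ligase that marks VLDLR and LRP8 for degradation. It was low and scattered at 2.60 ± 1.78 and 1.98 ± 0.738 CPM, and its log2 fold change of -0.41 (SE 0.46, adjusted p = 0.567) was not called. It was 0.19 without I/R+DMSO replicate 4. PDZK1, the scaffold that holds SR-B1 at the hepatocyte surface, had 12.2 ± 1.36 and 15.2 ± 1.35 CPM (log2 fold change 0.32, SE 0.10) and missed the threshold at an adjusted p of 0.0604.

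Among 14 ligands and lipases, 2 were called higher and none lower, beside 18.2% called among all genes. A2M, the alpha-2-macroglobulin that LRP1 clears when bound to a protease, rose from 1160 ± 94.98 to 1459 ± 74.7 CPM (log2 fold change 0.33, SE 0.07, adjusted p = 0.0127). TFPI, an inhibitor of coagulation and also an LRP1 ligand, rose by a log2 fold change of 0.17 (adjusted p = 0.0258). It was called in 13 of 22 settings, and only just with the length correction (0.13, adjusted p = 0.0497). RELN, the ligand of VLDLR and LRP8, was present at 100.3 ± 19.4 CPM and 139.7 ± 17.9 CPM. Its groups did not overlap, but its log2 fold change of 0.48 (SE 0.16) was not called (adjusted p = 0.0693) and was 0.16 with the length correction.

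Of 22 partners of LRP5 and LRP6 in Wnt signalling, 2 were called higher and 1 lower, beside 18.2% called among all genes. LGR5, a receptor for R-spondins, rose from 38.7 ± 2.10 to 50.8 ± 5.02 CPM (log2 fold change 0.39, SE 0.08, adjusted p = 0.0139), DVL2 rose by 0.18 on the log2 scale (adjusted p = 0.0440, called in 9 of 22 settings), and the frizzled receptor FZD7 fell from 12.5 ± 0.828 to 9.92 ± 0.312 CPM (-0.33, SE 0.07, adjusted p = 0.0162). LGR5 was called in 17 of 22 settings and not with the length correction (0.27, adjusted p = 0.0679). DKK1, the secreted inhibitor that binds LRP5 and LRP6, had 245 ± 18.6 and 221 ± 7.02 CPM and was not called (log2 fold change -0.15, adjusted p = 0.112). Of 13 Wnt target genes, NKD1 (0.50, SE 0.13, adjusted p = 0.0364) and LGR5, which is in both lists, rose and CCND1, which encodes cyclin D1, fell (-0.21, SE 0.05, adjusted p = 0.0187). NKD1 was called in 10 of 22 settings, and its value with the length correction was 0.13. AXIN2, a widely used target gene of beta-catenin, had 7.91 ± 0.219 and 8.21 ± 0.605 CPM (log2 fold change 0.05, SE 0.08, adjusted p = 0.791).

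Downstream of uptake, genes for handling fatty acids moved in both directions. Of 15 tested, 3 were called higher and 3 lower, beside 18.2% called among all genes. Their median log2 fold change was -0.09. ACSL4, which couples long polyunsaturated fatty acids to coenzyme A, rose from 121 ± 12.3 to 158 ± 8.30 CPM (log2 fold change 0.38, SE 0.07, adjusted p = 0.0120), and the lipid droplet coat protein PLIN2 (0.20) also rose. ACSL1 was called higher (0.27) in 7 of 22 settings and not with the length correction (0.17, adjusted p = 0.124). The fatty acid binding protein FABP5 fell from 160 ± 14.9 to 121 ± 7.65 CPM (-0.41, SE 0.07, adjusted p = 0.00889), as did caveolin-1, CAV1 (-0.27), and the transporter SLC27A3 (-0.39), which was called in 8 of 22 settings. Of 7 genes for sterol egress and efflux, NPC1, which moves cholesterol out of late endosomes, rose from 83.9 ± 3.997 to 110.7 ± 5.42 CPM (0.40, SE 0.05, adjusted p = 0.00254) and was called in all 22 settings. The lysosomal acid lipase LIPA rose as well (0.24, SE 0.05, adjusted p = 0.0104), and the other 5 were not called. Among all genes, 18.2% were called.

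Among 22 transcriptional regulators linked to these receptors, 6 were called higher and none lower, with a median log2 fold change of 0.10. Of all genes tested, 11.0% were called higher and 7.23% lower. ATF4 and DDIT3 encode factors of the integrated stress response. ATF4 rose from 514 ± 35.9 to 693 ± 13.4 CPM (0.43, SE 0.05, adjusted p = 0.00186). DDIT3 rose from 12.3 ± 4.46 to 25.5 ± 4.68 CPM (1.05, SE 0.26, adjusted p = 0.0298) but was not called in 6 of the 8 fits without a library. CEBPB (0.65, adjusted p = 0.000172), HIF1A (0.40, adjusted p = 0.000862) and NR5A2 (0.76, SE 0.18, adjusted p = 0.0236) also rose on the log2 scale. CEBPB and HIF1A were called in all 22 settings, and NR5A2 in 17 of 22. SREBF2, the activator of sterol uptake and synthesis genes, rose by 0.20 (SE 0.05, adjusted p = 0.0209) but was not called with the length correction (0.04, adjusted p = 0.417). PPARG, a regulator of VLDLR and CD36 in fat-storing cells, had 74.4 ± 2.94 and 71.1 ± 2.71 CPM and was not called (-0.06, SE 0.05, adjusted p = 0.374).

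**Figure D5:**
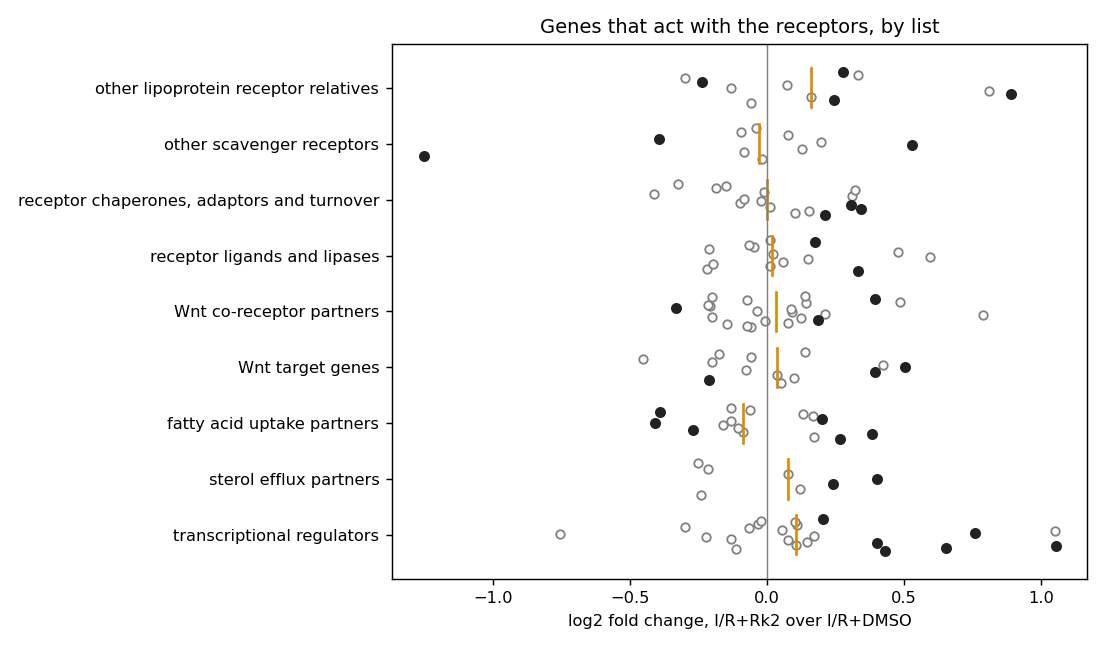
Log2 fold change of I/R+Rk2 over I/R+DMSO (horizontal axis) for each tested gene of the 9 lists, without a length correction. Filled points passed the adjusted p-value of 0.05, open points did not, and orange bars are list medians. The regulators hold 6 filled points, all above 0, and the fatty acid genes 3 on each side. The lists were chosen with earlier results of these data known. Of all genes tested, 11.0% were called higher and 7.23% lower.

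The genes most like VLDLR across the 8 libraries, by Pearson's r of log2 CPM among 9201 genes with a mean of at least 10 CPM, were CBS (0.999), ACBD3 (0.998) and SESN2 (0.997). CBS shares sequence with the near-identical copy CBSL, so its counts are uncertain. The genes most like OLR1 were GBP1 (0.989), TXNIP (0.987) and ANXA3 (0.981). SESN2 had mean levels of 33.1 and 83.0 CPM in I/R+DMSO and I/R+Rk2, and TXNIP of 56.7 and 35.1 CPM. With both groups in each correlation these are descriptions of 8 points that share treatment and depth, without a test.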

How the data were processed

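RNA-seq of 8 HuH7 samples was analysed, grouped by the treatment named in their labels. Libraries were made by the authors from 250 ng of total RNA with an MGIEasy kit. The submitters' processing notes name FastQC 0.11.5, HISAT2 2.2.1, StringTie 1.3.3 and hg38, and the counting tool, strand setting and annotation are not given in the sources used here. The authors deposited raw counts per gene without normalization (15767 genes) and FPKM, normalized for transcript length and library size (19799 genes). Of the symbols with counts, 22 had been turned into dates (0.111% of counts). These rows stayed in the tests where they passed the filter on counts. They were given no length and were left out of the search for correlated genes.

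The software was DESeq2 1.42.0, limma 3.58.1 and edgeR 4.0.16 in R 4.3.3. A gene entered the test when 4 or more libraries had a minimum of 10 counts (12928 genes). TMM-normalized counts were fitted in edgeR (quasi-likelihood, robust) on treatment alone, and p-values were adjusted over all genes by the Benjamini-Hochberg method. The biological coefficient of variation was 17.1%. The test was first run on simulated counts with known changes. Intervals on counts cover counting error only. A length per gene was derived from counts and FPKM, and the length correction removed a loess trend (span 0.5) from each library.

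The receptors and all lists were chosen with earlier results of these data known. Values are named for all receptors, for the called gene with the largest rise and fall of each list, and for RELN, LRPAP1, MYLIP, PDZK1, DKK1, AXIN2, PPARG, SREBF2 and ATF4. The 3 genes most correlated with VLDLR and with OLR1 are also named. Markers of hepatocytes (12 genes), macrophages (10), endothelial cells (8) and stellate cells (8) were summed. Some genes of these families are not reported here. Alternatives were DESeq2, other size factors, other filters, limma on log2(FPKM + 1), log2(FPKM + 0.1) and voom weights, a replicate block, the length correction, and leaving out each library.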

Additional observations from a re-analysis of the deposited data

How the results depend on the processing

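In 21 alternative settings the number of receptors called was 2 or 3, also (2 to 3) across the 8 leave-one-out fits. VLDLR and OLR1, which were chosen on this comparison, kept their direction and call in every setting that tested them. LRP6 kept its direction in all 21 and its call in 9. The log2 fold changes of LRP1 (-0.063) and LRP5 (-0.041) turned negative with the gene length correction, and with the replicate block together with that correction they were -0.060 and -0.041, and none of these values was called. The cause was not tested. The count of related genes called was 31 in the main analysis. It was 15 with limma on log2(FPKM + 1) and on log2(FPKM + 0.1), and 13 without a filter on FPKM, where 119, 119 and 140 of these genes were tested. Leaving out each library gave 18 to 32, with 19 without I/R+Rk2 replicate 2 and 18 without I/R+Rk2 replicate 4, where fewer samples entered the fit.

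When levels were ranked by normalized CPM per kilobase of merged exons in place of FPKM, LRP5 ranked 1 and SCARB1 ranked 2 in I/R+Rk2, and LRP6 ranked 4 and LRP8 ranked 5 in I/R+DMSO. LRP5 then lay 2.83 times (I/R+DMSO) and 2.91 times (I/R+Rk2) above SCARB1, against 1.01 and 0.986 in FPKM. Samples with the same replicate number did not visibly deviate together over all genes tested (correlations of 0.016, -0.009, 0.038 and 0.085). With 4 libraries per group, this check cannot exclude that samples were matched by number. With the replicate block 3 receptors and 26 related genes were called. Depth limited CD36 and, in part, OLR1 and CD14. In a screen of the 16 receptor and group pairs for an outlying library, none passed Dixon's 95% critical value for 4 samples, and the nearest, just below it with a ratio of 0.801, was I/R+DMSO replicate 1 for LRP1.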
